A study of Hansenula anomala with 15 samples.

Results

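The comparison set the transcriptome of the yeast Wickerhamomyces anomalus at 32 h of an apricot fermentation against that at its start, 0 h. Its members were 6 of the 15 libraries of the series, the 3 labelled 32 h and the 3 labelled 0 h, and the levels of all genes were compared between them. Each library held polyA RNA from whole fermentation broth, which is the broth with all cells in it, and the labels call the 3 libraries of a time point biological replicates. The other 9 libraries, at 16, 48 and 64 h, entered the fit so that all time points shared 1 estimate of the spread. Both groups were the same yeast in the same kind of broth and differed in time, as far as the labels say. They name no strain, genotype, medium, vessel or inoculum, and do not say whether the replicates came from separate vessels, so p-values measure the spread between these samples, which may be in part technical. The labels describe whole broth, so fewer cells of a kind and less RNA per cell cannot be told apart in any of the values.

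Wickerhamomyces anomalus is an ascomycete yeast of fruit and fermented foods, known for forming esters, ethyl acetate above all. A yeast on sugar breaks glucose down to pyruvate by glycolysis and, when it ferments, pyruvate decarboxylase and alcohol dehydrogenase turn the pyruvate into ethanol. On ethanol, acids or fatty acids, the carbon instead runs through the glyoxylate cycle and gluconeogenesis, whose key enzymes are isocitrate lyase, malate synthase, phosphoenolpyruvate carboxykinase and fructose-1,6-bisphosphatase, while fatty acids are broken down in the peroxisome. A growing yeast also spends a large part of its messenger RNA on ribosomal proteins, and a dividing one makes histones in S phase. Roles given for single genes are those of the Saccharomyces cerevisiae gene with that symbol, and the symbols rest on homology.

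Library totals were 38.6, 40.1 and 39.2 M (mega) counts at 0 h and 19, 25.9 and 25.6 M at 32 h, and a floor of 3 counts in a library was worth 0.0748 to 0.0777 CPM (counts scaled to a common library total) at 0 h and 0.116 to 0.158 CPM at 32 h, before TMM scaling, which all other CPM values carry. In the 0 h libraries 37.8% to 46.6% of the counts belonged to the 10 top genes, and in the 32 h libraries 25.3% to 31.7%. Over 4453 genes whose mean reached 10 CPM, Spearman's rho was 0.897 to 0.987 between 0 h replicates, 0.869 to 0.981 between 32 h replicates and 0.307 to 0.536 across the groups. In both groups replicates 1 and 2 were close and replicate 3 stood apart. The level in 0 h replicate 3, relative to the mean of the other two, ran with gene length (Spearman's rho -0.487 over genes), with short genes high in it. At 32 h, replicate 3 lay on the side of the 0 h level for most changed genes. It was the lowest of the 3 libraries for 1063 of the 1635 genes that rose and the highest for 1055 of the 1641 that fell. The log2 fold change had a rho of -0.064 with length over all genes, and the part of gene length in any result was not tested.

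Of 6327 genes tested with edgeR's quasi-likelihood test, 1635 were higher at 32 h (25.8%) and 1641 were lower (25.9%), at a Benjamini-Hochberg adjusted p under 0.05, so that 3276 genes were called (51.8%). The words rose and fell are kept for these genes. With the libraries scaled by total counts alone and not by TMM, 1981 genes were higher and 890 lower, which moved the share of higher genes among the calls from 49.9% to 69% and the median log2 fold change of all genes from -0.03 to 0.47. A list median under that scaling is therefore read against 0.47. At least 8-fold differences were found for 346 of the genes that rose and 442 of those that fell, and at least 32-fold ones for 85 and 112. All 3 values at 32 h lay above all 3 at 0 h for 1599 of the genes that rose, and all lay below for 1605 of those that fell. Over all 6327 genes tested, called or not, the values lay wholly above for 2066 and wholly below for 2077. A lack of overlap was therefore common here.

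**Figure D1:**
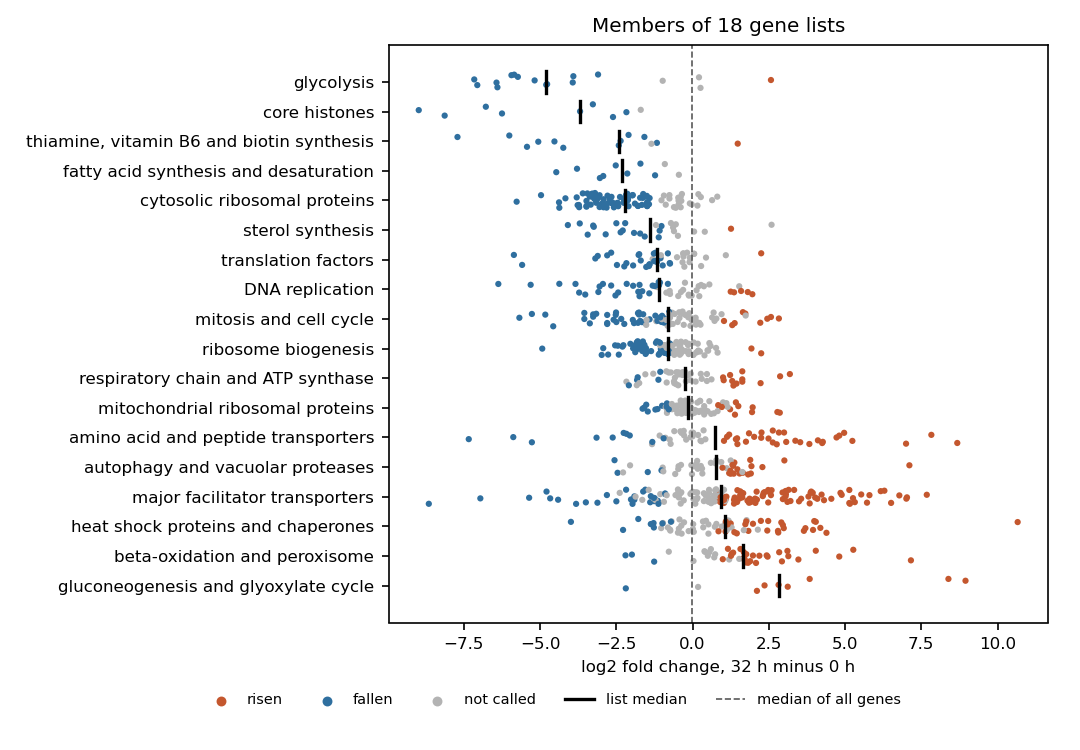
Log2 fold change, 32 h minus 0 h, of the members of 18 gene lists. Each point is a gene, coloured by its call, each black bar is the median of its list, and the dashed line is the median of all genes tested. The glycolysis list has its median at -4.80 and the gluconeogenesis and glyoxylate list at 2.82.

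Glycolysis had the lowest median of the 37 gene lists examined. Of its 17 genes, 13 fell and 1 rose, with a median log2 fold change of -4.80, against -0.03 for all genes. Together these 17 genes took 30.2%, 27.1% and 31.7% of the counts of the 0 h libraries and 0.736%, 0.815% and 2.17% of those of the 32 h libraries. Without 32 h replicate 3, which had the highest of the 3 levels for 12 of the 13 genes that fell, the median was -5.55.

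Glyceraldehyde-3-phosphate dehydrogenase, the enzyme that makes NADH in glycolysis, was the most abundant transcript at 0 h. Its main gene (WICANDRAFT_25185) had 111344, 82770 and 167232 CPM at 0 h and 2787, 2489 and 7712 CPM at 32 h. All 32 h values lay below all 0 h values, with replicate 3 highest in each group, and the log2 fold change was -4.80 (SE 0.88, adjusted p = 4.70e-04). Enolase (WICANDRAFT_30943) went from 66631, 50941 and 107758 CPM to 384, 398 and 1838 CPM. The groups were far apart and the fall was -6.43 (SE 1.05, adjusted p = 1.92e-04). For FBA1, the aldolase that splits fructose bisphosphate, the values were 43822, 33132 and 72829 CPM at 0 h against 218, 229.6 and 603 CPM at 32 h. It had the largest fall of the list, -7.16 (SE 0.98, adjusted p = 4.87e-05). PFK1 and PFK2 encode the subunits of phosphofructokinase, the committed step. PFK1 fell from 3479, 3526 and 1536 CPM to 9.3, 14.1 and 40.5 CPM, and PFK2 from 3986, 3541 and 2342 CPM to 48.3, 54.3 and 82.9 CPM. Pyruvate kinase (WICANDRAFT_88059), the last step, had 23021, 17380 and 27243 CPM at 0 h and 100, 91 and 611 CPM at 32 h, with a log2 fold change of -6.40 (SE 1.13). Leaving out 32 h replicate 3 made these falls larger: -5.51 for WICANDRAFT_25185, -7.59 for the enolase, -7.80 for FBA1, -7.92 for PFK1 and -7.88 for the pyruvate kinase.

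The remaining falls of the pathway were PGK1 (-5.85), GPM1 (-3.91), TPI1 (-5.18), PGI1 (-3.10), a hexokinase (WICANDRAFT_65261, -5.94) and the minor phosphoglycerate mutases WICANDRAFT_33945 (-4.77) and WICANDRAFT_84847 (-3.93), the last 2 falling further, to -5.70 and -4.61, without 32 h replicate 3. Not every hexokinase followed. WICANDRAFT_79472 had 581, 496 and 765 CPM at 0 h and 1054, 642 and 442 CPM at 32 h, so that the groups overlapped (log2 fold change 0.21, adjusted p = 0.75). NGK1, an N-acetylglucosamine kinase in other yeasts, stood at 4.88, 4.45 and 4.71 CPM and then 5.25, 6.27 and 5.32 CPM (0.26, adjusted p = 0.549), without overlap. A minor enolase (WICANDRAFT_68381) had a log2 fold change of -0.98 (adjusted p = 0.242, and 0.0286 without 16 h replicate 2). The member that rose was a second glyceraldehyde-3-phosphate dehydrogenase gene, WICANDRAFT_69455, from 1.56, 1.89 and 3.75 CPM to 19.3, 13 and 10.4 CPM (2.57, SE 0.54), a level far under that which its abundant paralog kept.

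**Figure D2:**
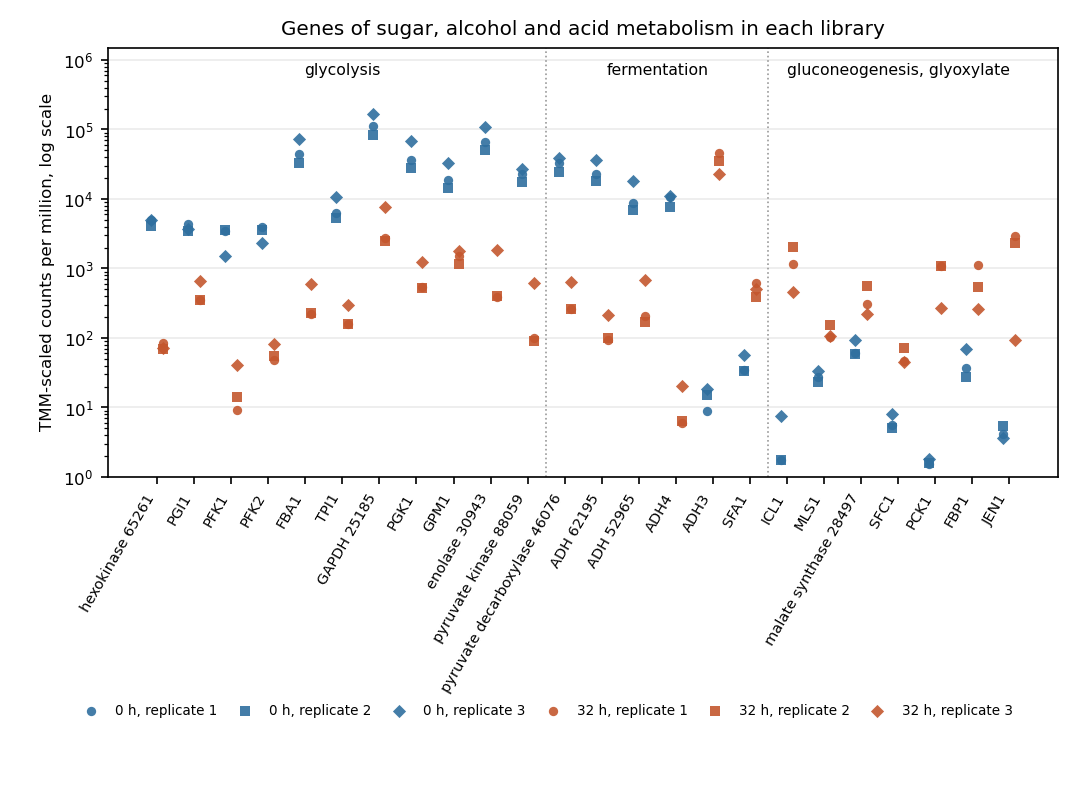
Level of 24 genes of glycolysis, fermentation, gluconeogenesis and the glyoxylate cycle in each library, in TMM-scaled CPM on a log axis. Blue points are the 3 libraries of 0 h and orange points those of 32 h, with 1 marker shape for each replicate. ADH3 and ADH4 change places, and JEN1 has its lowest 32 h value, 94.9 CPM, in replicate 3.

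Of the 12 genes of the alcoholic fermentation list 7 rose and 4 fell (58.3% and 33.3%, against 25.8% and 25.9% of all genes). This list kept 4.69%, 4.75% and 3.49% of the counts at 32 h after 7%, 6.28% and 6.56% at 0 h. Its median log2 fold change was 1.99, and its abundant members moved in both directions. A pyruvate decarboxylase by its KEGG ortholog (WICANDRAFT_46076), which turns pyruvate into acetaldehyde, had 33322, 24670 and 38436 CPM at 0 h and 265, 259.5 and 646 CPM at 32 h. The groups did not overlap and the fall was -6.36 (SE 0.92, adjusted p = 7.47e-05).

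Alcohol dehydrogenases had the largest rise and the largest fall among called genes with a symbol or description and at least 20 CPM in the higher group. ADH3, a mitochondrial isozyme in Saccharomyces cerevisiae, had 8.92, 14.9 and 18.4 CPM at 0 h and 45093, 35166 and 22570 CPM at 32 h. Every 32 h library was far above every 0 h library, the log2 fold change was 11.25 (SE 0.95, adjusted p = 1.04e-06), and the gene took 4.12% of the counts of a 32 h library on average. ADH4 had 10716, 7703 and 10960 CPM at 0 h and 6.08, 6.39 and 20.3 CPM at 32 h. That was a log2 fold change of -9.80 (SE 0.86, adjusted p = 1.32e-06), or -10.62 without 32 h replicate 3, the highest of its group. WICANDRAFT_62195, described as a class V alcohol dehydrogenase, fell from 22574, 17844 and 36030 CPM to 93.8, 99.6 and 213 CPM (-7.55, SE 1.09). WICANDRAFT_52965, of the same description, fell from 8668, 6931 and 18005 CPM to 209.8, 167 and 673 CPM (-5.0, SE 1.13, and -5.89 without 32 h replicate 3). SFA1, the glutathione-dependent formaldehyde dehydrogenase that also acts on long-chain alcohols, rose from 34.4, 33.5 and 56.6 CPM to 617, 384 and 499 CPM (3.59, SE 0.58). Between 5.40 and 33.8 CPM were reached at 32 h by the other 5 genes that rose, WICANDRAFT_30689, WICANDRAFT_62190, WICANDRAFT_56320, WICANDRAFT_70287 and WICANDRAFT_32539. The call of WICANDRAFT_32539 ended when any single 0 h or 32 h replicate but 0 h replicate 3 was left out (adjusted p between 0.0538 and 0.114), and without 0 h replicate 2 the rise of WICANDRAFT_62190 was 5.38 in place of 4.74. The sources used here do not say how reads shared by similar alcohol dehydrogenase genes were counted, so the levels of single paralogs carry that uncertainty.

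Of 9 genes of gluconeogenesis and the glyoxylate cycle 7 rose, with 1 fall and a median log2 fold change of 2.82. PCK1, phosphoenolpyruvate carboxykinase, the first committed step of gluconeogenesis, had 1.56, 1.59 and 1.81 CPM at 0 h and 1096, 1101 and 268 CPM at 32 h. Its rise was 8.95 (SE 1.06, adjusted p = 1.45e-05), and replicate 3 was the lowest of the 32 h libraries. ICL1, isocitrate lyase, the entry to the glyoxylate cycle, went from 1.73, 1.75 and 7.57 CPM to 1163, 2069 and 454 CPM (8.39, SE 1.33, adjusted p = 1.57e-04). The value was 9.46 without 0 h replicate 3 and 7.78 without 32 h replicate 2. FBP1, fructose-1,6-bisphosphatase, rose from 37.1, 27.3 and 69.8 CPM to 1118, 545 and 257 CPM (3.84, SE 0.65, and 3.22 without 32 h replicate 1). The malate synthases WICANDRAFT_28497 (2.36) and MLS1 (2.11), SFC1, the mitochondrial succinate and fumarate carrier (3.12), and ICL2 (2.82) rose too. Across the 7 genes that rose, replicate 3 was the lowest of the 32 h libraries for 6. Pyruvate carboxylase (WICANDRAFT_105169), which serves gluconeogenesis and the citrate cycle alike, had 351, 305 and 307 CPM and then 349.9, 432 and 307 CPM, with no gap between the groups (0.18, adjusted p = 0.66). ACS1, an acetyl-CoA synthetase, was the member that fell, from 257, 199 and 340.4 CPM to 55.3, 59 and 60.6 CPM (-2.19, SE 0.56).

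JEN1 encodes the carrier that takes up lactate and pyruvate in Saccharomyces cerevisiae. It had 4.12, 5.47 and 3.67 CPM at 0 h and 2947, 2328 and 94.9 CPM at 32 h, a log2 fold change of 8.66 (SE 1.76, adjusted p = 9.91e-04). The rule that took JEN1 required separate groups, and at 32 h replicate 3 was far under replicates 1 and 2. SIP4 and RDS2, zinc-cluster transcription factors that activate gluconeogenic genes in Saccharomyces cerevisiae, rose as well. SIP4 had 1.48, 1.23 and 0.685 CPM and then 44.6, 74.8 and 44.8 CPM (5.58, SE 0.82, adjusted p = 8.26e-05). RDS2 had 14.3, 11.6 and 12.4 CPM and then 65.9, 56.4 and 39.5 CPM (2.08, SE 0.29, adjusted p = 5.29e-05).

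In the citrate cycle 5 of 20 genes rose and 3 fell (25% and 15%, against 25.8% and 25.9% of all genes, with a median of 0.22). An NADP-dependent isocitrate dehydrogenase, WICANDRAFT_85133, had 20.6, 14.9 and 18.2 CPM at 0 h and 2462, 2088 and 655 CPM at 32 h, a rise of 6.60 (SE 0.80, adjusted p = 1.74e-05). CIT3, a citrate synthase, rose from 6.58, 5.07 and 6.85 CPM to 52.8, 48.1 and 31 CPM (2.83, SE 0.38). The respiratory chain and ATP synthase, 50 genes, had 12 risen and 5 fallen (24% and 10%, the first near the 25.8% of all genes). The median of this list was -0.26, which became 0.28 with total-count scaling. QCR8, a subunit of the cytochrome bc1 complex, had 115, 105 and 193 CPM and then 1763, 1277 and 729.8 CPM (3.19, SE 0.58). COX8, of cytochrome c oxidase, had 496, 423 and 835 CPM and then 5848, 4207 and 2737 CPM (2.87, SE 0.53), and QCR10 rose by 2.23. Among members taken by symbol after their values were seen, 6 of 12 QCR and COX genes rose and 0 fell (median 0.34). For ATP synthase subunits, 4 of 12 fell and 1 rose (median -0.78). Of 21 complex I genes, taken by description, 5 rose and 1 fell (median -0.06). Of all genes 25.8% rose and 25.9% fell. The count of 12 risen was 6 without 0 h replicate 1 or without 0 h replicate 2, and the count of 5 fallen was 2 or 3 without 0 h replicate 1 or 2, 32 h replicate 1 or 2 or any 48 h replicate, and 11 without 16 h replicate 2.

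Most peroxisomal genes rose. Of 41 genes of beta-oxidation and peroxisome assembly 27 rose (65.9%) and 3 fell, with a median log2 fold change of 1.65, and their part of the counts went from 0.059%, 0.0628% and 0.0467% to 0.354%, 0.422% and 0.326%. POT1, the thiolase that ends each round of beta-oxidation, had 6.91, 5 and 12.9 CPM at 0 h and 274, 269 and 151 CPM at 32 h (4.81, SE 0.54, adjusted p = 9.43e-06). PEX11, which drives peroxisome division, rose from 3.62, 3.54 and 5.44 CPM to 130.1, 182 and 174 CPM (5.27, SE 0.60, adjusted p = 1.05e-05). An enoyl-CoA isomerase (WICANDRAFT_70060), needed for unsaturated fatty acids, went from 0.306, 0.204 and 0.644 CPM to 51.5, 54.1 and 54.8 CPM. The 3 values at 32 h were close together and the rise was 7.16 (SE 0.48, adjusted p = 1.75e-07). Of 17 genes with a PEX symbol 11 rose and 1 fell. FOX2, the multifunctional beta-oxidation enzyme (3.14), CTA1, the peroxisomal catalase (3.47), and PEX8 (2.46) rose too; these 3 were chosen after their values were seen. The count of 3 fallen was 1 without 0 h replicate 1, 0 h replicate 2 or 32 h replicate 2.

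Of 14 trehalose and glycogen genes 7 fell and 1 rose (50% and 7.14%, against 25.9% and 25.8% of all genes). Their median was -1.15, or -0.82 when 32 h replicate 1 was left out and -1.53 when replicate 3 was. Glycogen phosphorylase GPH1 had 1879, 1733 and 1414 CPM at 0 h and 149, 149 and 276 CPM at 32 h (-3.13, SE 0.57, adjusted p = 4.20e-04). The glycogen synthase WICANDRAFT_29895 fell from 505, 468 and 338 CPM to 20.2, 23.2 and 55.9 CPM (-3.72, SE 0.70), or by 4.33 on the log2 scale without 32 h replicate 3. GLC3, the branching enzyme, had 277, 304 and 151 CPM and then 28.4, 1.8 and 47.8 CPM (-3.23, SE 0.90, and -4.02 without 32 h replicate 3). The member that rose was ATH1, the acid trehalase, named here after its value was seen (2.02, adjusted p = 5.26e-05). A fall outside these lists belongs to the first step of sugar use. An invertase, the enzyme that splits sucrose outside the cell (WICANDRAFT_35787), had 645, 537 and 452 CPM at 0 h and 0.935, 0.884 and 1.83 CPM at 32 h, a log2 fold change of -8.79 (SE 1.06, adjusted p = 1.77e-05). Glycerol-3-phosphate dehydrogenase (WICANDRAFT_30049) fell from 1553, 1463 and 1411 CPM to 2.39, 3.51 and 6.95 CPM (-8.42, SE 0.56, adjusted p = 1.75e-07). A fumarate reductase flavoprotein gene (WICANDRAFT_61438) fell from 96.5, 105 and 59.4 CPM to 0.468, 0.0884 and 0.305 CPM (-8.30, SE 1.32).

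**Figure D3:**
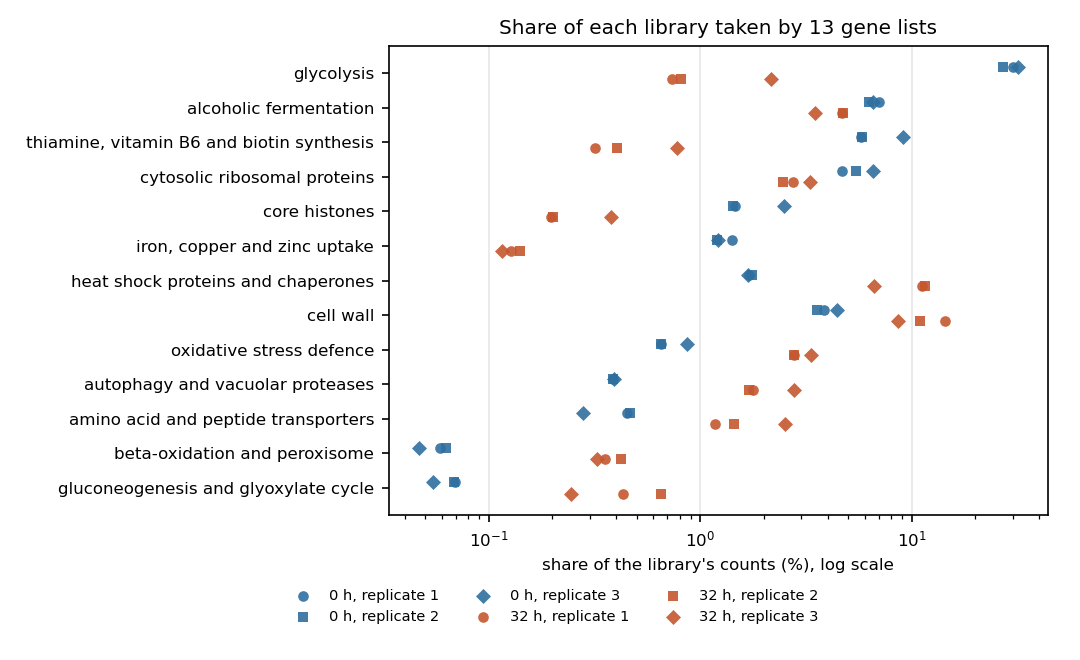
Share of each library's counts, in percent on a log axis, taken by 13 gene lists. Blue points are the 3 replicates of 0 h and orange points those of 32 h. Glycolysis drops from 27.1% to 31.7% at 0 h to between 0.736% and 2.17% at 32 h, and the heat shock and chaperone genes go from 1.69% to 1.76% up to between 6.64% and 11.5%.

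Of 93 cytosolic ribosomal protein genes 72 fell, with a median of -2.22, or -1.80 without 0 h replicate 3. None rose by edgeR's test (0 also at an unadjusted p under 0.05, and 0 by DESeq2), while 2 rose with total-count scaling and 1 without 0 h replicate 3. The list took 4.67%, 5.45% and 6.53% of the counts at 0 h and 2.76%, 2.46% and 3.32% at 32 h. RPL39, a small protein of the large subunit, had 134, 159 and 346 CPM and then 5.35, 6.72 and 8.22 CPM (-4.97, SE 0.61, adjusted p = 2.10e-05). A gene for L9 (WICANDRAFT_35384) fell from 465, 549 and 1388 CPM to 31.6, 34 and 49.8 CPM (-4.38, SE 0.57, and -3.72 without 0 h replicate 3). A gene for L27 (WICANDRAFT_36077) fell from 277, 359 and 269 CPM to 1.82, 3.98 and 10.6 CPM (-5.77, SE 1.02, and -6.69 without 32 h replicate 3). Without 0 h replicate 3, in which short genes were high, 62 of the 93 fell, with a median of -1.80.

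Ribosome biogenesis genes fell in 46 of 96 cases and rose in 2 (median -0.80), translation factors in 27 of 45 with 1 rise (median -1.16), and aminoacyl-tRNA synthetases in 16 of 35 with 2 rises (median -0.66). The shares fallen were 47.9%, 60% and 45.7%, against 25.9% of all genes, and those risen 2.08%, 2.22% and 5.71%, against 25.8%. With total-count scaling the counts of falls were 23, 12 and 8. NOP1, the fibrillarin that methylates ribosomal RNA, had 299.9, 256 and 383 CPM and then 39.7, 29.9 and 68 CPM (-2.77, SE 0.79, adjusted p = 0.00939). NOG2, a GTPase of large subunit assembly, fell from 104, 93.7 and 60.3 CPM to 9.56, 11 and 13.2 CPM (-2.93, SE 0.47). Valyl-tRNA synthetase VAS1 fell from 266, 339 and 154 CPM to 14.8, 18.7 and 29.8 CPM (-3.58, SE 0.54), WRS1 for tryptophan by 3.01 and ILS1 for isoleucine by 2.82 on the log2 scale. TIF4632, the eIF4G scaffold of initiation, fell from 83.3, 99 and 52.4 CPM to 5.61, 7.78 and 13.7 CPM (-3.11, SE 0.58). MAK32, which the list's symbol pattern took in although it is not known as a ribosome assembly gene, fell by 4.93. The small counts of rises moved with single libraries: the 2 biogenesis genes were 1 without 0 h replicate 3 or 32 h replicate 2, and the 2 synthetases were 1 without 0 h replicate 1, 0 h replicate 2 or 32 h replicate 2 and 4 without 64 h replicate 3.

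Of 67 genes of mitochondrial ribosomal proteins 10 rose and 10 fell (median -0.16, or 0.40 with total-count scaling), under the 25.8% and 25.9% of all genes in both directions. MRPS12 rose from 13.3, 11 and 22.4 CPM to 166, 112 and 60.5 CPM (2.86, SE 0.46) and MRP49 from 47.6, 35.6 and 80.6 CPM to 560.0, 360.0 and 206 CPM (2.78, SE 0.52). RTC6 rose by 1.97. The 10 falls were 5 or 6 without 0 h replicate 1 or 2 or 32 h replicate 1 or 2 and 16 without 16 h replicate 2, and without 0 h replicate 3 the median was 0.15.

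Of 9 core histone and variant genes 8 fell, with a median of -3.69, or -4.62 without 32 h replicate 3, when all 9 fell. None rose by edgeR's test, at an unadjusted p under 0.05 or by DESeq2. Histones package DNA and are made in S phase, and polyA RNA of yeasts includes their messages. HTB2 (H2B) had 2742, 2054 and 6458 CPM at 0 h and 9.92, 5.8 and 6.62 CPM at 32 h, a log2 fold change of -8.98 (SE 0.95, adjusted p = 5.40e-06). HTA2 (H2A) had 2140, 1612 and 5287 CPM and then 11.3, 10.2 and 10.7 CPM (-8.13, SE 0.62). The groups did not overlap, and 0 h replicate 3 was the highest of its group; without it the values were -8.33 for HTB2 and -7.44 for HTA2. For H3, H4 and H2B another gene had a higher level at 32 h. HHT2 (H3) fell to 33.8, 23.1 and 60 CPM (-6.78, or -6.09 without 0 h replicate 3) and HHF2 (H4) to 24, 28.2 and 42.2 CPM (-6.25), while HHT1 went from 3084, 2733 and 9049 CPM to 820.1, 738 and 879 CPM (-2.61, SE 0.51) and HHF1 from 1018, 923 and 2645 CPM to 374, 286 and 359.8 CPM (-2.17, SE 0.50). Without 0 h replicate 3 these last 2 were -1.84 and -1.51. The second H2B gene (WICANDRAFT_76395) had 2006, 1410 and 4379 CPM and then 677, 428 and 1288 CPM (-1.70, adjusted p = 0.0604 by edgeR and 0.0201 by DESeq2). HTZ1, the variant H2A.Z, fell by 3.27 and an H3 or H4 gene, WICANDRAFT_37034, by 3.69 on the log2 scale (-3.89 and -4.62 without 32 h replicate 3).

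DNA replication genes fell in 25 of 48 cases and rose in 5 (median -1.09), and mitosis and cell cycle genes in 38 of 85 with 9 rises (median -0.82). The shares fallen were 52.1% and 44.7%, against 25.9% of all genes, and those risen 10.4% and 10.6%, against 25.8%. The share of the counts of the mitosis and cell cycle list was 0.279%, 0.318% and 0.16% at 0 h and 0.324%, 0.394% and 0.339% at 32 h, higher in every 32 h library. Ribonucleotide reductase makes the deoxynucleotides for replication. Its small subunit gene (WICANDRAFT_35738) had 268, 231 and 401 CPM and then 1.56, 2.42 and 6.81 CPM (-6.37, SE 0.63, adjusted p = 3.27e-06), and its large subunit gene (WICANDRAFT_92205) fell from 339.9, 294 and 327 CPM to 5.2, 6.07 and 12.9 CPM (-5.31, SE 0.54). POL30, the sliding clamp PCNA, had 32.2, 26.2 and 100.5 CPM and then 1.66, 1.53 and 4.4 CPM (-4.37, SE 0.61). CDC5, the polo kinase of mitotic exit, fell from 71.2, 66.3 and 57 CPM to 4, 2.65 and 1.58 CPM (-4.57, SE 0.51), a cyclin (WICANDRAFT_17598) by 5.68 and the kinetochore gene SPC105 by 3.55 on the log2 scale. TUB2, beta tubulin, chosen after its value was seen, went from 279.7, 245 and 311 CPM to 4.47, 4.12 and 22.9 CPM (-4.73, SE 0.83). Without 32 h replicate 3 the values were -7.22 for WICANDRAFT_35738, -5.05 for POL30, -6.36 for WICANDRAFT_17598 and -6.02 for TUB2, and without 0 h replicate 3 POL30 had -3.52. The counts of falls were 15 and 20 with total-count scaling, the mitosis count was 25 without 0 h replicate 2, and the 5 rises were 3 without 0 h replicate 1, 0 h replicate 2 or 32 h replicate 2. CHS2, the chitin synthase of the septum, fell from 92.7, 87.3 and 81.5 CPM to 1.97, 2.65 and 1.02 CPM (-5.53, SE 0.68), and the daughter cell separation enzymes CTS1, a chitinase, and SCW11, a glucanase, by 3.59 and 4.67 (5.36 for SCW11 without 32 h replicate 3).

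Of 69 heat shock proteins and chaperones 27 rose and 8 fell (39.1% and 11.6%, against 25.8% and 25.9% of all genes), with a median of 1.07, and their share of the counts went from 1.71%, 1.76% and 1.69% to 11.2%, 11.5% and 6.64%. HSP26, a small heat shock protein that holds unfolding proteins in solution, had 8.36, 10.6 and 14.7 CPM at 0 h and 23872, 24219 and 6238 CPM at 32 h. The rise was 10.66 (SE 1.44, adjusted p = 4.21e-05), and replicate 3 was far under the other 32 h libraries. SSA3, an HSP70, had 590.2, 690.2 and 459.7 CPM and then 15264, 12170 and 4256 CPM (4.19, SE 0.89, adjusted p = 0.00133). HSP78, a mitochondrial disaggregase, went from 96.1, 109.9 and 53.9 CPM to 2682, 2321 and 459 CPM (4.39, SE 1.0). Named after their values were seen, HSP82, the HSP90 (4.04), HSP60, the mitochondrial chaperonin (3.70), and CPR3, a mitochondrial cyclophilin (3.99, or 4.90 without 0 h replicate 3), also rose. Replicate 3 was the lowest of the 32 h libraries for 25 of the 27 genes that rose. The 8 falls were 4 or 5 without 0 h replicate 2, 32 h replicate 1 or 2, or any 48 h replicate. HSP31, a glyoxalase-like stress protein, had 1095, 984 and 2429 CPM and then 14489, 9729 and 7271 CPM (2.80, SE 0.56). HSP30, a membrane protein, had 7903, 6493 and 11998 CPM and then 24592, 16927 and 15874 CPM; these did not overlap, but the adjusted p was 0.0977 by edgeR and 0.0309 by DESeq2.

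Genes against oxidative damage were divided, with 17 of 39 risen and 9 fallen (43.6% and 23.1%, against 25.8% and 25.9% of all genes). Their median was 0.16. SOD1, the copper and zinc superoxide dismutase, had 621, 508 and 1293 CPM and then 12584, 8485 and 10611 CPM (3.71, SE 0.57, adjusted p = 1.12e-04). A glutathione S-transferase (WICANDRAFT_17192) rose from 27.5, 28.2 and 56.1 CPM to 3115, 2901 and 1496 CPM (6.07, SE 0.73), and a peroxiredoxin gene (WICANDRAFT_17950) from 15.8, 16.7 and 41.5 CPM to 1152, 908 and 1811 CPM (5.71, SE 0.69, and 6.31 without 0 h replicate 3). The manganese superoxide dismutases went opposite ways. WICANDRAFT_78614 fell from 901, 738 and 1667 CPM to 13.7, 15.1 and 12.1 CPM (-6.34, SE 0.46, adjusted p = 3.52e-07), and SOD2, chosen after its value was seen, rose from 172, 144 and 339 CPM to 869, 1044 and 1341 CPM (2.31, SE 0.44). The 9 falls were 5 without 32 h replicate 1 or without 32 h replicate 2.

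Genes of autophagy and of the vacuole rose in 19 of 47 cases and fell in 4 (40.4% and 8.51%, against 25.8% and 25.9% of all genes). Their median was 0.78, and their share of the counts went from 0.387%, 0.388% and 0.391% to 1.77%, 1.70% and 2.79%. Among the 26 with an ATG symbol 12 rose and 1 fell. An aspartyl protease (WICANDRAFT_14182) had 15.5, 12.3 and 25.1 CPM and then 1078, 945 and 5251 CPM (7.11, SE 1.17, adjusted p = 2.06e-04, and 5.84 without 32 h replicate 3, the highest of its group). A subtilisin-type vacuolar protease (WICANDRAFT_64521) rose from 942, 791 and 1447 CPM to 10831, 7276 and 7535 CPM (3.01, SE 0.54). ATG13, a subunit of the kinase complex that starts autophagy, rose from 43.2, 37.6 and 35.6 CPM to 249, 205 and 114 CPM (2.29, SE 0.40; chosen after its value was seen). WICANDRAFT_80788, another aspartyl protease, fell by 2.46. The proteasome had 3 of 37 genes risen and 10 fallen (8.11% and 27%, the second near the 25.9% of all genes). Its median was -0.30, which was 0.25 with total-count scaling. PRE10 and RPN12, of the core and of the regulatory particle, fell by 1.70 and 1.67, and RPN7 by 1.49, a call that ended with total-count scaling (adjusted p = 0.0964). The genes that rose, chosen after their values were seen, were NAS2 (1.23), RPN14 (1.10) and RPN1 (1.03). The count of 10 falls was 6 with 0 h replicate 3 left out and 5 with 32 h replicate 1 left out, and the 3 rises were 1 without 0 h replicate 1, 32 h replicate 1 or 32 h replicate 2 and 6 without 16 h replicate 2.

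Falls outnumbered rises in the synthesis of arginine (8 of 11 fell, median -2.50), lysine (6 of 8, -2.14), histidine (6 of 8, -2.54), branched-chain amino acids (7 of 12, -1.74), aromatic amino acids (6 of 11, -1.12) and sulfur amino acids (14 of 28, -1.28). In that order the shares fallen were 72.7%, 75%, 75%, 58.3%, 54.5% and 50%, against 25.9% of all genes. Single members rose in 4 of the first 5 lists, and 4 rose in the sulfur list. None rose in the branched-chain list by edgeR's test, at an unadjusted p under 0.05 or by DESeq2. The single rise in the arginine list was lost without any 0 h replicate or 32 h replicate 2, and that in the aromatic list without 0 h replicate 1 or 3 or 32 h replicate 1 or 2. Transporters of amino acids and peptides, 62 genes, rose in 31 cases and fell in 10 (50% and 16.1%, against 25.8% and 25.9% of all genes). Their median was 0.72.

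MET6, the methionine synthase, had 1049, 1111 and 883 CPM at 0 h and 29.9, 31.6 and 49.7 CPM at 32 h (-4.77, SE 0.68, adjusted p = 6.18e-05). ARG1, argininosuccinate synthase, fell from 1021, 968 and 1295 CPM to 60.1, 63.9 and 95.3 CPM (-3.90, SE 0.64), and CPA1, of carbamoyl phosphate synthesis, by 3.91. The rule that took these genes required separate groups. HIS5 fell from 43, 43.9 and 50.1 CPM to 1.92, 2.47 and 2.63 CPM (-4.28, SE 0.35, adjusted p = 8.54e-07), and LYS9 from 509.5, 559 and 825 CPM to 38.5, 71.7 and 45.6 CPM (-3.60, SE 0.35). ILV5, the reductoisomerase of valine and isoleucine synthesis, went from 982, 903 and 1335 CPM to 22.7, 19 and 100.1 CPM (-4.50, SE 1.12, and -5.69 without 32 h replicate 3). LEU1 fell by 4.28, ILV2 by 4.07, MET13 by 4.54 and ARO4 by 2.43. Against these, a gene described as cystathionine lyase (WICANDRAFT_84160), which works on sulfur amino acids, rose from 36.1, 31.5 and 70.4 CPM to 1365, 821 and 846 CPM (4.46, SE 0.75, adjusted p = 2.44e-04). PUT2, which breaks proline down, rose by 2.27 (chosen after its value was seen).

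WICANDRAFT_33562, described as a sexual differentiation process protein of the ISP4 type (a family of oligopeptide transporters), had 13.9, 12.1 and 11.9 CPM and then 3412, 3292 and 8816 CPM. The log2 fold change was 8.68 (SE 0.91, adjusted p = 5.30e-06, and 8.05 without 32 h replicate 3), and the rule that took this gene required separate groups. WICANDRAFT_57692, of the same family, rose from 10.5, 10.6 and 9.91 CPM to 1702, 1922 and 3439 CPM (7.83, SE 0.70, adjusted p = 1.50e-06). An amino acid transporter (WICANDRAFT_36177) went the other way, from 602, 471 and 448 CPM to 2.91, 2.83 and 3.63 CPM (-7.34, SE 0.55).

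Permeases of the major facilitator family, which carry sugars, acids, drugs and ions, rose in 80 of 159 cases and fell in 27. These were 50.3% and 17%, against 25.8% and 25.9% of all genes, with a median of 0.92. WICANDRAFT_83918 had 19.6, 15.9 and 25.9 CPM and then 4430, 3634 and 4502 CPM (7.68, SE 0.96, adjusted p = 2.30e-05), and WICANDRAFT_24864 had 1.67, 1.48 and 2.09 CPM and then 275, 216 and 194 CPM (7.03, SE 0.52). WICANDRAFT_63188 was the abundant one at 0 h, at 5351, 4365 and 4189 CPM, and fell to 6.39, 5.95 and 22.2 CPM (-8.65, SE 1.29, adjusted p = 9.13e-05, and -9.55 without 32 h replicate 3). With total-count scaling the falls were 15. The substrates of these genes are not given in the annotation.

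Zinc uptake was among the deepest falls. ZRT1 and ZRT2 are the high-affinity and low-affinity zinc transporters of the plasma membrane. ZRT1 had 7080, 4717 and 9968 CPM at 0 h and 18.5, 14.4 and 22.2 CPM at 32 h (-8.62, SE 0.61, adjusted p = 2.93e-07). ZRT2 had 4309, 3134 and 5732 CPM and then 6.03, 8.16 and 13.9 CPM (-8.87, SE 0.75, adjusted p = 1.05e-06). The rule that took both genes required groups that do not overlap. A gene of the same family, WICANDRAFT_85399, fell by 6.43, and ZPS1, a relative of a secreted zinc-binding protein of Candida albicans, from 4622, 3505 and 6426 CPM to 20.3, 23.6 and 17.8 CPM (-7.88, SE 0.75). ZAP1, the activator of zinc uptake genes in Saccharomyces cerevisiae, had 111, 141 and 100.3 CPM and then 7.07, 9.19 and 9.42 CPM (-3.78, SE 0.35), and ZRT3, the vacuolar zinc exporter, fell by 3.27; ZAP1 and ZRT3 were chosen after their values were seen. A gene described as cobalamin synthesis protein (WICANDRAFT_35981) fell from 1884, 1911 and 1059 CPM to 6.5, 6.36 and 10.1 CPM (-7.72, SE 0.47, adjusted p = 1.19e-07). FET3, the multicopper oxidase of iron uptake, fell by 2.40 and CTR2, a copper transporter, rose by 3.73, both chosen after their values were seen. Over the 32 genes of the iron, copper and zinc list 12 rose and 13 fell (37.5% and 40.6%, against 25.8% and 25.9% of all genes). The median of the list was -0.13, or 0.39 with total-count scaling. The 12 rises were 6 or 7 without 0 h replicate 1 or 2.

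Vitamin synthesis fell in 11 of 13 genes and rose in 1 (median -2.42), and its part of the counts went from 5.78%, 5.83% and 9.07% to 0.317%, 0.403% and 0.779%. Most of it was THI4, the enzyme that makes the thiazole of thiamine, with 50616, 43140 and 128156 CPM at 0 h and 2319, 2352 and 4955 CPM at 32 h (-4.53, SE 0.83, adjusted p = 4.59e-04, and -3.87 without 0 h replicate 3). It stood at rank 3 of all genes per length at 0 h and at rank 36 at 32 h. PET18 fell from 1257, 1205 and 2916 CPM to 21.7, 28.3 and 33.2 CPM (-6.01, SE 0.56). A pyridoxine synthesis gene of the SNZ family (WICANDRAFT_30969) fell from 3505, 2744 and 5014 CPM to 21.2, 26.1 and 6.7 CPM (-7.71, SE 0.90), and BIO4, of biotin synthesis, from 403, 338 and 587 CPM to 13.4, 14 and 3.46 CPM (-5.43, SE 0.56). PET18, WICANDRAFT_30969 and BIO4 were picked only among genes without overlap, and the groups of THI4 did not overlap either. The single rise, the pyridoxal kinase gene BUD16, was not called when 0 h replicate 1 or 2 or 32 h replicate 1 or 2 was left out.

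Of 26 sterol genes 16 fell and 1 rose (median -1.38), and of 10 genes of fatty acid synthesis and desaturation 8 fell (median -2.33). The shares fallen were 61.5% and 80%, against 25.9% of all genes. No gene of fatty acid synthesis rose by edgeR's test, at an unadjusted p under 0.05 or by DESeq2. ERG25, a sterol methyl oxidase, had 1967, 1668 and 3618 CPM and then 124, 145 and 289 CPM (-3.70, SE 0.75), and ERG20 (-4.09) and ERG3 (-3.44) fell too. ACC1, acetyl-CoA carboxylase, which commits carbon to fatty acids, had 1229, 1329 and 637 CPM and then 39.7, 61.7 and 129 CPM (-3.79, SE 0.81), FAS1 865, 1072 and 506 CPM and then 14, 22.5 and 73.7 CPM (-4.47, SE 1.06), and ELO2 fell by 3.04. Without 32 h replicate 3 ACC1 had -4.39 and FAS1 -5.48. The single sterol rise was not called when 0 h replicate 1 or 2 or 32 h replicate 3 was left out, and became 2 without 0 h replicate 3, 16 h replicate 2 or 3 or 64 h replicate 1 or 3.

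Genes linked to aroma were few. Of the 6 genes of ester and higher alcohol formation that could be recognised 3 rose (50%, against 25.8% of all genes). None fell by edgeR's test, while 1 was lower at an unadjusted p under 0.05, 1 fell by DESeq2 and 1 fell without 64 h replicate 2 or 64 h replicate 3. ARO9, an aminotransferase that starts the breakdown of aromatic amino acids to fusel alcohols, had 3.82, 4.09 and 2.22 CPM and then 83.2, 116 and 174 CPM (5.20, SE 0.75, adjusted p = 7.26e-05). ARO8, its paralog, had 141, 107 and 150 CPM and then 754, 486 and 208 CPM (1.86, SE 0.53). ARO10, the decarboxylase of the next step, chosen after its value was seen, rose by 1.97 from a low level, 2.76, 2.63 and 2.54 CPM. Among 15 aldehyde dehydrogenases, which oxidise aldehydes to acids, 7 rose and 4 fell (46.7% and 26.7%, against 25.8% and 25.9% of all genes). WICANDRAFT_95589 rose from 113, 113 and 111 CPM to 1960, 2684 and 1475 CPM (4.18, SE 0.70) and WICANDRAFT_80365 fell from 565, 529 and 599 CPM to 13.8, 20.2 and 7.53 CPM (-5.35, SE 0.54). ALD5 fell from 196, 129.9 and 225 CPM to 19.1, 31.3 and 23.8 CPM (-2.89, adjusted p = 0.0153, and 0.0608 without 32 h replicate 1).

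Cell wall proteins headed the list of abundant transcripts at 32 h. Per length, CWP2 ranked 1 and CCW12 ranked 2 at 32 h, with ADH3 at rank 3 and HSP26 at rank 4. CWP2, a wall mannoprotein, had 8710, 7253 and 17746 CPM at 0 h and 61858, 38387 and 33555 CPM at 32 h. The groups did not overlap (1.99, SE 0.70, adjusted p = 0.0273), but the call ended without 0 h replicate 1, 0 h replicate 2 or 32 h replicate 1 (adjusted p 0.0962, 0.0991 and 0.0807) and with a replicate block (0.0623). CCW12, another mannoprotein, had 25955, 19142 and 44639 CPM and then 71233, 39849 and 19994 CPM, which overlapped (0.55, adjusted p = 0.48). An unannotated gene (WICANDRAFT_83923), at 2.77% and 3.20% of the counts on average, also overlapped (-0.35, adjusted p = 0.789). Over 30 cell wall genes 4 rose and 8 fell (13.3% and 26.7%, against 25.8% and 25.9% of all genes). Their median was -0.29, or 0.18 with total-count scaling. The 4 rises were 2 without 0 h replicate 1, 0 h replicate 2 or 32 h replicate 1.

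Among regulators, 18 of 92 protein kinases rose and 37 fell (19.6% and 40.2%, against 25.8% and 25.9% of all genes). Their median was -0.42. The falls were 21 with total-count scaling, 23 without 32 h replicate 1 and 24 without 32 h replicate 2. SKS1, a kinase tied to glucose uptake in Saccharomyces cerevisiae, had 626, 624 and 319 CPM and then 1.71, 1.94 and 8.14 CPM (-7.04, SE 1.33, and -8.15 without 32 h replicate 3). A casein kinase gene (WICANDRAFT_98187) fell from 83.1, 91.9 and 39.2 CPM to 1.45, 1.03 and 2.08 CPM (-5.55, SE 0.72). ISR1 rose from 10, 9.79 and 7.41 CPM to 258, 245 and 185 CPM (4.66, SE 0.48, adjusted p = 4.38e-06). Sporulation and meiosis genes gave 3 rises and 4 falls of 23 (13% and 17.4%, both under the shares of all genes, median 0.06). SPO11, which cuts DNA in meiosis, rose by 2.85 to no more than 29.3 CPM. Leaving out 32 h replicates 1 and 2 gave 1 and 2 falls, and the 3 rises were 5 without 16 h replicate 2. Of 9 zinc-cluster transcription factors 2 rose (SIP4 and RDS2) and 2 fell, 22.2% each, against 25.8% and 25.9% of all genes. The count of falls was 1 without 0 h replicate 1 or 2 or 32 h replicate 1 or 2.

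**Figure D4:**
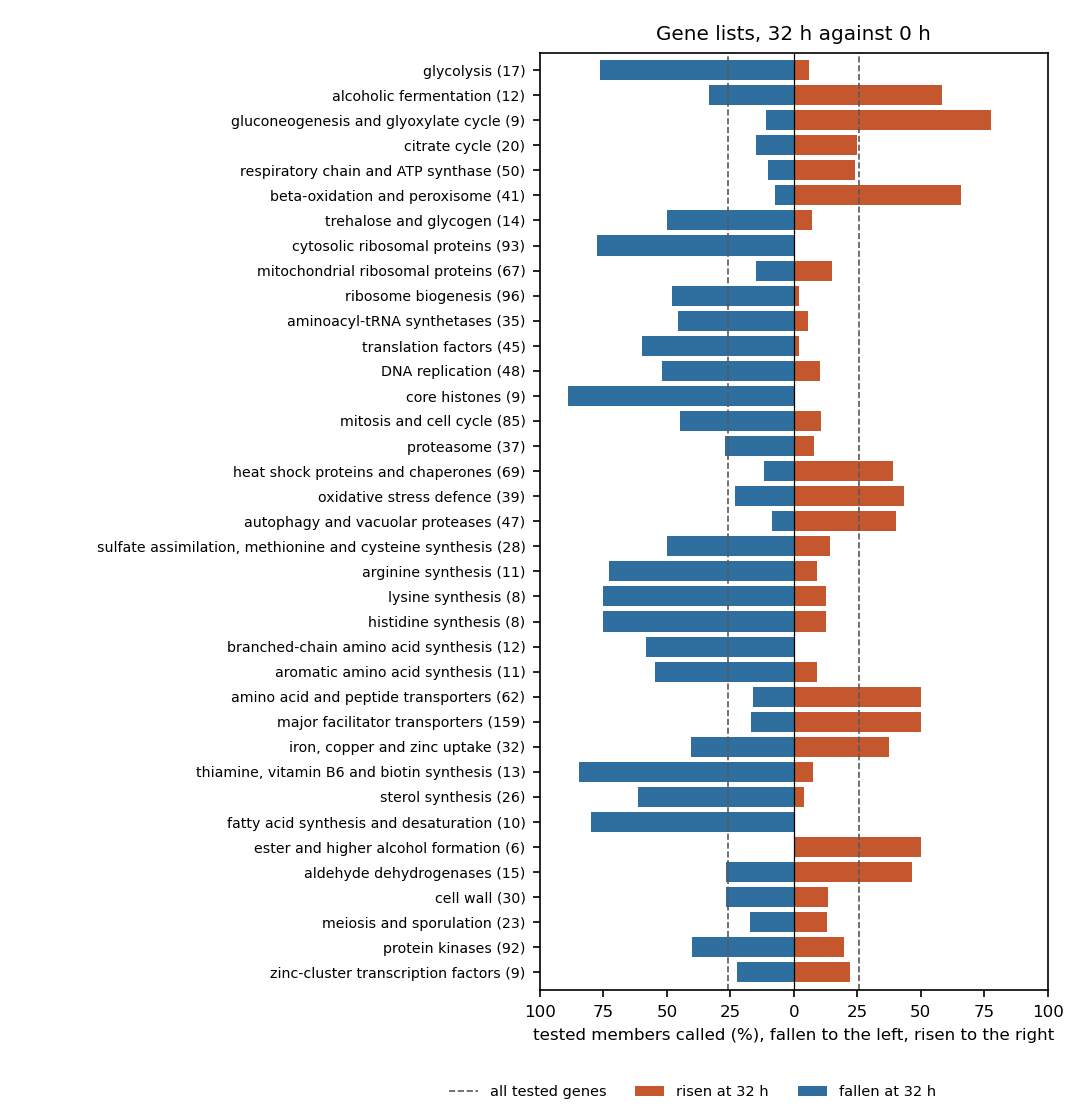
Percent of the tested members of each of 37 gene lists that rose (orange, to the right) or fell (blue, to the left), with the number tested in brackets. Dashed lines mark 25.8% and 25.9%, the shares of all genes tested. Core histones reach the highest share fallen, 88.9%, and gluconeogenesis and glyoxylate genes the highest share risen, 77.8%.

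By KOG class, the highest shares of rises were in secondary metabolism (46 of 112, 41.1%), carbohydrate transport and metabolism (70 of 219, 32.0%) and inorganic ion transport (35 of 110, 31.8%), against 25.8% of all genes. The carbohydrate and ion classes held nearly as many falls, 61 and 34. Protein turnover and chaperones had 116 rises and 62 falls of 402. Translation had the highest share of falls (151 of 336, 44.9%, with 35 rises), followed by the cytoskeleton (36 of 87, 41.4%), coenzyme metabolism (37 of 91, 40.7%), nucleotide metabolism (30 of 75, 40%) and chromatin (34 of 87, 39.1%), against 25.9% of all genes. Among 12 KOG descriptions with at least 15 genes, major facilitator permeases led the rises with 41 of 63 (65.1%). Predicted E3 ubiquitin ligases with 8 of 17 (47.1%) and aldo/keto reductases with 7 of 15 (46.7%) came next, against 25.8% of all genes. Serine/threonine protein kinases led the falls with 11 of 20 (55%), then ATP-dependent RNA helicases with 8 of 15 (53.3%), against 25.9% of all genes. An aldo/keto reductase, WICANDRAFT_25067, chosen after its value was seen, rose from 20.3, 16.2 and 21.1 CPM to 494, 516 and 619 CPM (4.82, SE 0.61).

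**Figure D5:**
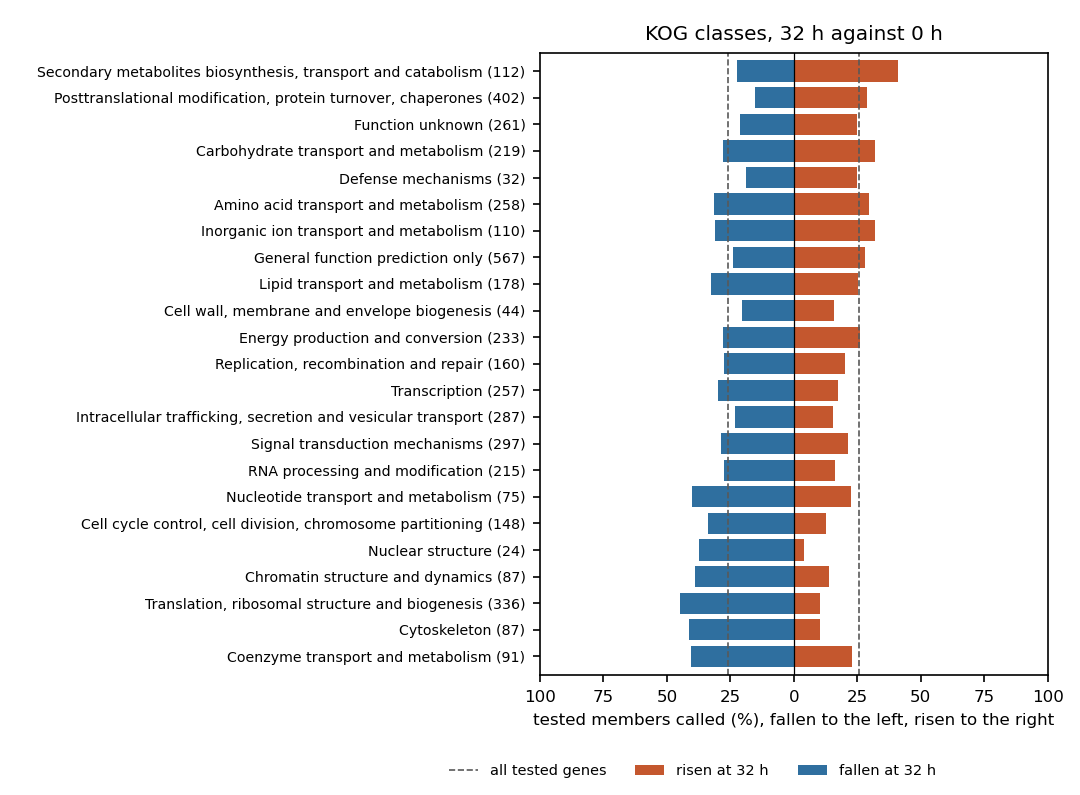
Percent of tested genes of each KOG class that rose (orange, right) or fell (blue, left) at 32 h, with the number tested in brackets and classes in the order of their median log2 fold change. Dashed lines mark the shares of all genes. Translation has 44.9% fallen and 10.4% risen, and secondary metabolism 22.3% and 41.1%.

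Among 164 KEGG maps with at least 15 tested genes, the highest share of falls was 74 of 97 (76.3%, against 25.9% of all genes). This was the map for coronavirus disease, and 93 of its 97 genes were the cytosolic ribosomal proteins (95.9% of the map and 100% of the list). Of maps that share most of their genes, only the map with the highest share is named. The next were glucagon signaling (14 of 20 fell), DNA replication (21 of 32), the HIF-1 map (13 of 20) and methane metabolism (13 of 22). The glucagon, HIF-1 and methane maps held 5, 10 and 7 of the 17 glycolysis genes. By the same rule the map with the highest share of rises was drug metabolism by cytochrome P450 (11 of 19, against 25.8% of all genes). Of its 19 genes, risen or not, 9 belong to the fermentation list. Peroxisome (27 of 49), phenylalanine metabolism (15 of 28) and fatty acid degradation (17 of 32, with 11 falls) followed. Animal disease and signaling maps are assigned through shared orthologs.

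The GO terms named here were picked for high shares among 2461 with at least 15 tested genes. Of all genes 25.8% rose and 25.9% fell. Peroxisomal matrix had 13 of 16 risen, vacuolar lumen 12 of 19 and iron-sulfur cluster assembly 16 of 27, with 3 fallen. In the last group NFU1, a scaffold for clusters in mitochondria, had 7.75, 8.04 and 8.86 CPM and then 68.3, 81.9 and 49 CPM (3.01, SE 0.42), and ISA2 rose by 2.67. ATM1, the mitochondrial exporter of that pathway, went against them, from 1886, 1566 and 3396 CPM to 21.8, 37.6 and 38.5 CPM (-6.13, SE 0.83, adjusted p = 4.53e-05). These 3 genes were chosen after their values were seen. The term with the highest share of falls was DNA packaging complex (14 of 16). Its 16 genes, fallen or not, include all 9 histone genes. Next were positive regulation of cytokinesis (13 of 15), structural constituent of the cytoskeleton (16 of 20), response to decreased oxygen (12 of 15) and large cytosolic ribosomal subunit (46 of 60).

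Genes with neither symbol nor description were 1488 of those tested. Of these, 530 rose (35.6%) and 278 fell (18.7%), against 25.8% and 25.9% of all genes. WICANDRAFT_54279 rose from 2.84, 2.34 and 5.32 CPM to 9682, 7318 and 5137 CPM (11.04, SE 1.28, adjusted p = 1.16e-05). WICANDRAFT_59628 had no count in any 0 h library and 41.8, 29 and 114 CPM at 32 h, which is at least 511-fold higher than a floor of 3 counts per library allows at 0 h, or at least 293-fold without 32 h replicate 3. WICANDRAFT_63910 had a count in 1 of the 0 h libraries and 29.8, 20.1 and 58.4 CPM at 32 h. WICANDRAFT_61351 fell from 112, 111 and 64 CPM to 0.468, 0.56 and 0.443 CPM (-7.59, SE 0.59), and WICANDRAFT_64676 and WICANDRAFT_107855 by 8.01 and 6.78. A methyltransferase by its description (WICANDRAFT_86031) rose from 0.669, 0.477 and 1.05 CPM to 185, 126 and 27.6 CPM (7.29, SE 0.96). A haloacid halidohydrolase-like gene (WICANDRAFT_77374) fell from 5376, 4492 and 6492 CPM to 7.79, 10.3 and 24 CPM (-8.60, SE 1.11, and -9.24 without 32 h replicate 3).

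The other time points are given by library, without a test. At 16 h the glyceraldehyde-3-phosphate dehydrogenase WICANDRAFT_25185 had 358940, 141654 and 194565 CPM, at 48 h 2049, 4428 and 3631 CPM and at 64 h 13587, 29561 and 3705 CPM. FBA1 had 82775, 38546 and 50954 CPM at 16 h, 154, 395 and 221 CPM at 48 h and 1438, 3287 and 291 CPM at 64 h. Both were thus high at 16 h and low at 48 h, and at 64 h replicate 3 was the lowest. ADH3, by contrast, was high by 16 h, at 53705, 22829 and 23849 CPM, when ADH4 had 37.4, 10.1 and 36.9 CPM. ZRT1, at 39.4, 27.6 and 27.7 CPM, and ZRT2, at 78.2, 325 and 109 CPM, were also far under their 0 h levels at 16 h. PCK1 had 7.55, 54.5 and 10.6 CPM at 16 h, 1412, 590.0 and 496 CPM at 48 h and 4073, 2630 and 919 CPM at 64 h. ICL1 had 17.8, 295 and 22.3 CPM at 16 h, 3134, 1342 and 867 CPM at 48 h and 3682, 1498 and 4641 CPM at 64 h. In both genes 16 h replicate 2 was the highest of its group. HSP26 had 2071, 1142 and 1503 CPM at 16 h, 37655, 5753 and 11694 CPM at 48 h and 1578, 2448 and 30404 CPM at 64 h. JEN1 had 16.3, 114 and 14.7 CPM at 16 h, 1590, 326 and 585 CPM at 48 h and 60.9, 20.1 and 1140 CPM at 64 h. In these last 2 genes 64 h replicate 3 was far above the other 64 h libraries.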

How the data were processed

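The authors deposited 1 table of read counts per gene for all 15 libraries, with gene name, description, KOG, KEGG and GO columns. The gene symbols used here were taken from RefSeq. Per the labels' protocols the libraries were made from polyA RNA of whole broth. Per the submitters' processing notes, fastp, HISAT2 and HTSeq were used; their versions, the counting mode and the genome build are not given in the sources used here. Every value column was matched to a sample by its title, and 0 columns were left unmatched. Counts of 15 libraries were scaled by TMM, filtered with filterByExpr and fitted with edgeR 4.0.16 (R 4.3.3) with a mean for each time point and no replicate block. The contrast 32 h minus 0 h was tested by the quasi-likelihood test on 6327 genes with Benjamini-Hochberg adjustment and a threshold of 0.05. CPM are counts scaled to a common library total, with TMM factors. Ranks per length use RefSeq gene lengths, for which all 6571 genes matched. Floors of 3 counts cover counting error only. DESeq2 1.42.0, limma 3.58.1 and the other alternatives appear in the closing section. The procedure was also run on simulated data in which few genes changed, as many up as down. In the real comparison 51.8% of genes were called, so that simulation cannot address the dependence on scaling.

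Genes were named by a rule: the 12 largest rises and 12 largest falls among called genes with a symbol or description, groups that do not overlap and a mean of 20 CPM or more in the group with the higher level; up to 3 called genes from each of 37 lists; the 10 most abundant at each time; all members of 4 carbon and histone lists; and up to 3 unannotated genes each way. The called genes from lists and the unannotated genes had to pass the same filters of level and of no overlap. For every gene taken through these filters, no overlap was required in advance and is not a further result. Annotation groups needed 15 tested genes, and up to 6 in each direction were eligible to be named. The comparison, lists and rule were chosen with earlier results of these data known. A few genes that the rule takes are not reported here. No set test was run.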

Additional observations from a re-analysis of the deposited data

How the results depend on the processing

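With total-count scaling 890 genes fell in place of 1641, the only count of all genes that moved by more than 1.5 times among the alternatives run. Leaving out each library in turn gave 1293 to 1846 genes risen and 1194 to 1860 fallen. DESeq2 gave 1729 and 1805, limma-voom 1658 and 1661, median-of-ratios size factors 1612 and 1666, no low-count filter 1634 and 1645, a filter of 10 CPM 1234 and 1252, the 6 libraries alone 1862 and 1845, and a minimum change of 1.5-fold 1295 and 1279. Without 16 h replicate 2 and 64 h replicate 3 together 1979 rose and 1988 fell, and without 0 h replicate 3 and 32 h replicate 3 together 1546 and 1622. With a replicate block 1514 genes rose and 1518 fell. Deviations of same-numbered 0 h and 32 h libraries had correlations of -0.133, 0.00457 and -0.178, so the numbers were not shown to pair the samples. Of 165 tested genes taken by the naming rule 155 were called. Among these, 4 calls (RPN7, ALD5, CWP2 and WICANDRAFT_32539) ended in at least 1 alternative and no direction reversed. Genes named outside the rule are not in these counts, among them BUD16, whose call was lost without single libraries. Medians of the respiratory, mitochondrial ribosomal, proteasome, metal uptake, cell wall and zinc-cluster lists changed sign with total-count scaling. That scaling moves all genes of a library by the same factor, but the factor differs between libraries. Each of these medians stayed under the median of all genes, which was -0.03 and then 0.47. Low genes are limited by depth, since 3 counts were worth up to 0.158 CPM at 32 h.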
